A study of Rattus norvegicus with 6 samples.

Results

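Cholesterol and fatty acid synthesis genes were followed in the renal cortex of rats given thiobis(6-tert-butyl-m-cresol) in its 4,4' form (TBBC), a phenolic antioxidant whose rings are joined by sulfur. The set holds 30 genes taken from the mevalonate and sterol pathway, the SREBP regulators and fatty acid synthesis, and they were found through the transcript accession of each array probe. Of these 30 genes, 29 had a probe and 28 could be tested, among 12298 named genes and 32956 transcripts tested in all. Srebf1, the transcription factor that drives lipogenic genes, had no named probe. Scd, the stearoyl-CoA desaturase, had 2 probes that were too dim to test: 1 was well above background on no array, and the other on 2 vehicle arrays and 1 TBBC array. All animals were male Sprague-Dawley (Crl:CD(SD)) rats bought at 5 weeks of age and kept on a basal diet. For 4 weeks 3 rats received corn oil, the vehicle, and the other 3 received TBBC at 300 mg/kg/day. Each rat gave 1 array (1-colour, Cy3, Agilent), and the design text calls the replicates biological. The dosing route and the age at dosing were not given in the sources used here.

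Cholesterol is built from acetyl-CoA through mevalonate, farnesyl diphosphate and squalene, and then through a series of sterol intermediates. The transcription factor SREBP2, encoded by Srebf2, turns on nearly every gene of this route. It is held in the endoplasmic reticulum by its escort Scap and by the Insig proteins when sterols are plentiful, and it is released and cleaved when sterols are scarce. Insig1 is itself a target of SREBP and so closes a feedback loop. SREBP1, encoded by Srebf1, acts mainly on the genes of fatty acid synthesis. In the kidney cortex, proximal tubule cells hold most of the tissue mass and rely mainly on fatty acid oxidation for energy.

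Signals are given as log2 of the processed signal over the array's 75th percentile, so that 0 is the level of that percentile. Differences are log2 fold changes, TBBC minus vehicle, with their standard error from limma, and the adjusted p-values are limma's with Benjamini-Hochberg adjustment over all 32956 transcripts. A gene counts as having risen or fallen at an adjusted p under 0.05. By that rule 0 of the 28 tested genes passed, and 0.531% of all transcripts did (175, of which 84 were higher and 91 lower). At an unadjusted p under 0.05, 10 of the 28 were below the threshold, against 20.0% of transcripts: 9 were higher in TBBC, against 9.55%, and 1 was lower, against 10.4%. The differences of the 28 genes are therefore given as measured values.

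Between 67.1% (TBBC 2) and 70.9% of 61537 probes per array were well above background. The summed signal of 10 proximal tubule markers was 11.1 to 11.2 in vehicle rats and 10.8 to 11.1 in TBBC rats (log2), and that of 8 distal nephron markers was 8.96 to 9.20 and 8.10 to 8.82. Defining genes of renal cortex were thus present in both groups. At an unadjusted p under 0.05 in limma, 2 of the 10 and 2 of the 8 were lower in TBBC, against 10.4% of transcripts. By the same rule 0 of either list were higher, against 9.55%, and 0 passed at an adjusted p under 0.05. Slide 1, read in scan 1, carried all 3 vehicle arrays together with TBBC 1. Slide 2, read in scan 2, carried the other two TBBC arrays. In whole tissue, fewer cells of a type and less RNA per cell cannot be told apart.

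Most sterol synthesis genes had higher signals in the TBBC rats than in the vehicle rats, while the fatty acid genes were divided. The median log2 fold change was 0.28 over the 7 mevalonate genes, 0.30 over the 11 squalene and sterol genes, 0.04 over the 5 regulator and sterol carrier genes, and -0.00 over the 5 fatty acid genes. Over all transcripts it was -0.02. That of the fatty acid genes was the value of Acaca on its brightest probe. Over the alternatives described below it was -0.09 to 0.18, the highest with the mean of each gene's probes. For the squalene and sterol genes the alternatives gave 0.20 to 0.42. Of the 28 genes, 21 had a log2 fold change above 0, against 46.5% of transcripts. In 12 of the 28 every TBBC array lay above every vehicle array, against a background of 13.1%. These were Hmgcs1, Mvk, Idi1, Fdps, Sqle, Cyp51, Msmo1, Nsdhl, Ebp, Insig1, Srebf2 and Elovl6. The reverse held for 1 gene, Stard4, against 15.2%. A difference of at least 2-fold was reached by Sqle, Insig1 and Elovl6, all higher in TBBC (3 of 28, against 1.62% of transcripts), and by no gene in the lower direction (2.18%). These counts describe a set chosen with earlier results of these data known, and they were not tested against the shares.

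**Figure D1:**
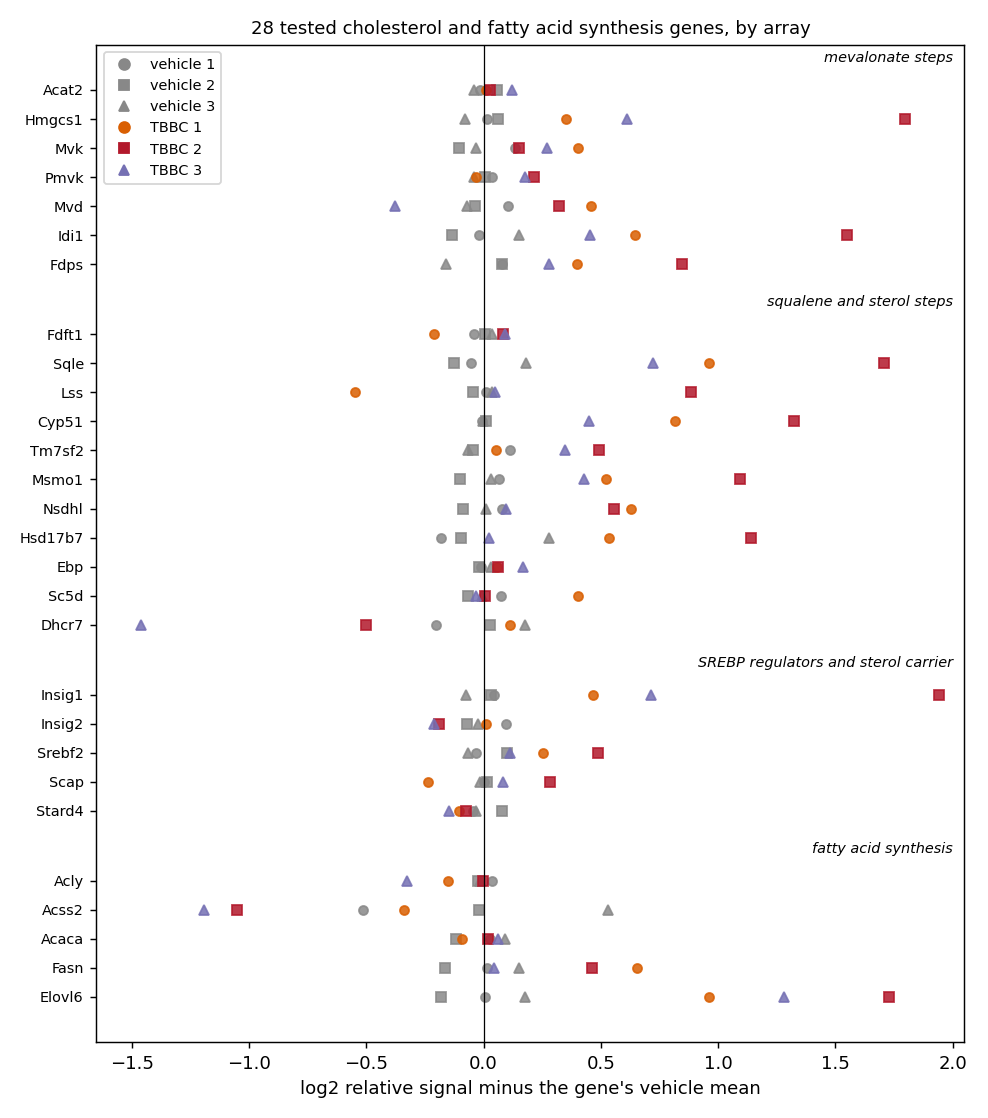
Signal of each of the 28 tested genes on each of the 6 arrays, as log2 relative signal minus the gene's mean over the 3 vehicle arrays (x axis), with genes in rows by pathway step. Grey symbols are vehicle rats and coloured symbols TBBC rats. Hmgcs1, Idi1, Sqle, Cyp51, Insig1 and Elovl6 have all coloured symbols right of the grey ones, and TBBC 2 lies farthest right in each of them.

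The early, mevalonate enzymes of the pathway convert acetyl-CoA to the isoprenoid unit. Acat2, the cytosolic thiolase of the first condensation, stood at 3.42, 3.49 and 3.40 in vehicle 1 to 3 and at 3.45, 3.46 and 3.56 in TBBC 1 to 3. Its groups overlapped, and the log2 fold change was 0.05 ± 0.10 (SE). Hmgcs1, the cytosolic HMG-CoA synthase that commits acetyl-CoA to mevalonate, stood at 2.73, 2.78 and 2.64 in the vehicle rats and at 3.07, 4.51 and 3.33 in the TBBC rats. All 3 TBBC rats were above the vehicle rats, with TBBC 2 well above the other two. The difference was 0.92 ± 0.37, a 1.89-fold higher mean (95% interval 1.02 to 3.51; adjusted p = 0.238), and without TBBC 2 it was 0.48. The other 2 tested probes of Hmgcs1 gave 0.98 and 0.90.

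Mevalonate kinase (Mvk) had vehicle signals of -1.23, -1.47 and -1.39 and TBBC signals of -0.96, -1.21 and -1.09. Its groups were apart by a narrow gap between TBBC 2 and vehicle 1, and the log2 fold change was 0.28 ± 0.12 (adjusted p = 0.277). The next kinase, Pmvk, was at 0.12 ± 0.11 and the decarboxylase Mvd at 0.13 ± 0.23, and both overlapped between groups. Mvd was split within the TBBC group, with 1.23 and 1.10 in TBBC 1 and 2, above the vehicle range of 0.71 to 0.88, and 0.40 in TBBC 3, below it.

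Idi1 isomerises the isoprenoid unit into its reactive form. Its vehicle signals were 0.88, 0.76 and 1.05, and its TBBC signals were 1.54, 2.45 and 1.35. All TBBC rats were higher, again with TBBC 2 highest. The groups differed by 0.88 ± 0.29, or 1.84-fold (95% interval 1.13 to 3.01; adjusted p = 0.178), and without TBBC 2 it was 0.55. Fdps, which makes farnesyl diphosphate, the branch point to sterols and other isoprenoids, stood at 2.89, 2.89 and 2.65 in vehicle rats and at 3.21, 3.65 and 3.09 in TBBC rats. These groups did not overlap either, and the log2 fold change was 0.51 ± 0.18, or 1.42-fold (adjusted p = 0.191). Its other 2 tested probes gave 0.62 and 0.59.

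At the first squalene step, Fdft1, the squalene synthase, was at 2.94, 2.99 and 3.02 in vehicle rats and at 2.77, 3.07 and 3.07 in TBBC rats. Its groups overlapped, with a log2 fold change of -0.01 ± 0.12. Sqle, the squalene epoxidase and a rate-limiting enzyme of sterol synthesis, stood at 1.24, 1.16 and 1.47 in vehicle rats and at 2.25, 3.00 and 2.02 in TBBC rats. The lowest TBBC rat was above the highest vehicle rat by more than the whole vehicle range. The difference was 1.13 ± 0.26, a 2.19-fold higher mean (95% interval 1.41 to 3.41; adjusted p = 0.106), and the other tested probe gave 1.07. Lss, the cyclase that folds oxidosqualene into lanosterol, showed no common direction: the vehicle rats were at 0.64, 0.59 and 0.67 and the TBBC rats at 0.09, 1.52 and 0.68. Its log2 fold change of 0.13 ± 0.34 became -0.25 without TBBC 2.

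Cyp51 removes the first methyl group from lanosterol. Its vehicle signals lay close together at -0.17, -0.16 and -0.17, and its TBBC signals were 0.65, 1.15 and 0.28. All TBBC rats were above the vehicle rats. The difference was 0.86 ± 0.22, or 1.82-fold (95% interval 1.25 to 2.63; adjusted p = 0.121), and the other tested probe gave 0.91. Tm7sf2, a sterol reductase of the next step, was at 0.30 ± 0.14 with overlapping groups (adjusted p = 0.314).

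Msmo1, Nsdhl and Hsd17b7 act together in removing the remaining methyl groups. Msmo1, the methylsterol monooxygenase, stood at 4.08, 3.91 and 4.04 in vehicle rats and at 4.53, 5.10 and 4.44 in TBBC rats. Its groups did not overlap, and the log2 fold change was 0.68 ± 0.19, or 1.60-fold (95% interval 1.16 to 2.22; adjusted p = 0.142). Nsdhl, the decarboxylating dehydrogenase, was at -0.29, -0.45 and -0.35 in vehicle rats and at 0.26, 0.19 and -0.27 in TBBC rats. TBBC 3 lay just above the highest vehicle rat, and the log2 fold change was 0.43 ± 0.17 (adjusted p = 0.227). Hsd17b7, the ketoreductase, had vehicle signals of -1.84, -1.76 and -1.38 and TBBC signals of -1.13, -0.52 and -1.64. Here TBBC 3 lay within the vehicle range, and the log2 fold change of 0.57 ± 0.29 was 0.28 without TBBC 2.

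Ebp, Sc5d and Dhcr7 act at the end of the route. Ebp, the sterol isomerase, was at 3.93, 3.91 and 3.96 in vehicle rats and at 3.99, 4.00 and 4.10 in TBBC rats. The groups did not overlap, but the difference was only 0.10 ± 0.10 (adjusted p = 0.620). The desaturase Sc5d was at 0.13 ± 0.15, with 1 TBBC rat above the vehicle range. Dhcr7, the reductase of the final step, was at 2.23, 2.46 and 2.62 in vehicle rats and at 2.55, 1.94 and 0.98 in TBBC rats. TBBC 1 lay within the vehicle range, and TBBC 2 and TBBC 3 lay below it. The log2 fold change of -0.62 ± 0.39 (adjusted p = 0.426) was -0.98 without TBBC 1 and -0.19 without TBBC 3.

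**Figure D2:**
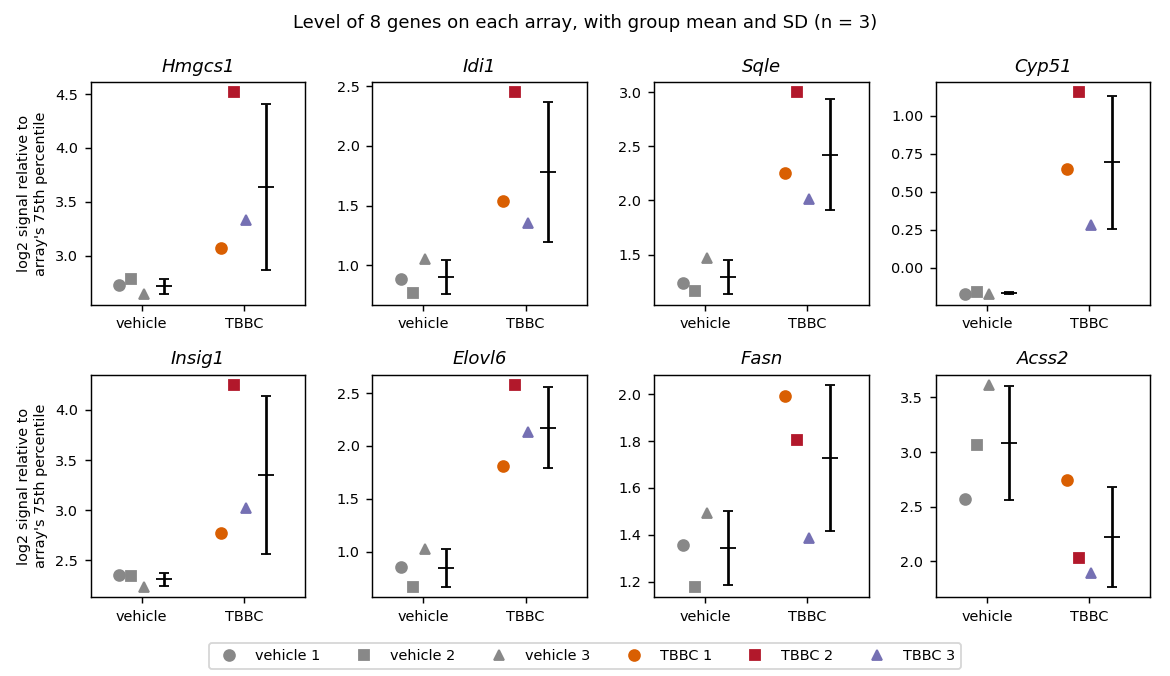
Signal of 8 genes on each array (y axis, log2 relative signal, a separate range in each panel), with the group mean and SD as black bars (n = 3 rats a group). TBBC 2 is the highest array for Hmgcs1, Idi1, Sqle, Cyp51, Insig1 and Elovl6, while the groups overlap for Fasn and Acss2.

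Among the SREBP regulators, Insig1 stood at 2.35, 2.34 and 2.23 in vehicle rats and at 2.77, 4.25 and 3.02 in TBBC rats. Its order over the TBBC rats was that of Hmgcs1, with TBBC 2 highest and TBBC 1 lowest, and all TBBC rats were above the vehicle rats. The difference was 1.04 ± 0.38, a 2.06-fold higher mean (95% interval 1.09 to 3.87; adjusted p = 0.203), and without TBBC 2 it was 0.59. All 4 probes of Insig1 were tested, and the other 3 gave 1.10, 1.09 and 0.98.

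Srebf2 stood at 1.77, 1.90 and 1.73 in vehicle rats and at 2.06, 2.29 and 1.91 in TBBC rats. TBBC 3 was above the highest vehicle rat by a small margin. The log2 fold change was 0.29 ± 0.13 (adjusted p = 0.295), 0.49 on its other tested probe, and 0.18 without TBBC 2. Insig2, the other Insig gene, was at -0.13 ± 0.11, and Scap at 0.04 ± 0.15, both with overlapping groups. Stard4, a cytosolic carrier that moves cholesterol between membranes, was at 1.82, 1.94 and 1.83 in vehicle rats and at 1.76, 1.79 and 1.72 in TBBC rats. The groups did not overlap, but the difference of -0.11 ± 0.10 did not pass (adjusted p = 0.578), and the other tested probe gave 0.04.

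At the start of fatty acid synthesis, Acly and Acss2 make cytosolic acetyl-CoA, from citrate and from acetate. Acly was at -0.16 ± 0.12 with overlapping groups. Acss2 stood at 2.57, 3.06 and 3.61 in vehicle rats and at 2.74, 2.03 and 1.89 in TBBC rats. The vehicle rats themselves covered a wide range, and TBBC 1 lay within it. The log2 fold change was -0.86 ± 0.33, a 1.81-fold lower mean (adjusted p = 0.226), and the other tested probe gave -0.90.

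Acaca, the acetyl-CoA carboxylase that commits carbon to fatty acids, was at -0.00 ± 0.11 on its brightest probe and at 0.36 on the other tested probe, the widest gap between probes of any of these genes. Fasn, the fatty acid synthase, stood at 1.36, 1.18 and 1.49 in vehicle rats and at 1.99, 1.81 and 1.39 in TBBC rats. TBBC 3 lay within the vehicle range. The log2 fold change was 0.39 ± 0.18 (adjusted p = 0.307), 0.37 on the other probe, and 0.25 without TBBC 1.

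Elovl6, which extends palmitate to stearate and is a known target of SREBP1, had the smallest p of the 28 genes. Its signals were 0.85, 0.67 and 1.03 in vehicle rats and 1.81, 2.58 and 2.13 in TBBC rats. The groups were far apart, and the difference was 1.32 ± 0.22, a 2.50-fold higher mean (95% interval 1.74 to 3.59; adjusted p = 0.0641). The other tested probe gave 1.39. The adjusted p ranged from 0.0303 to 0.244 over 21 alternatives, and it passed with normexp background correction (0.0386, log2 fold change 1.24) and with eBayes using trend and robust (0.0303).

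**Figure D3:**
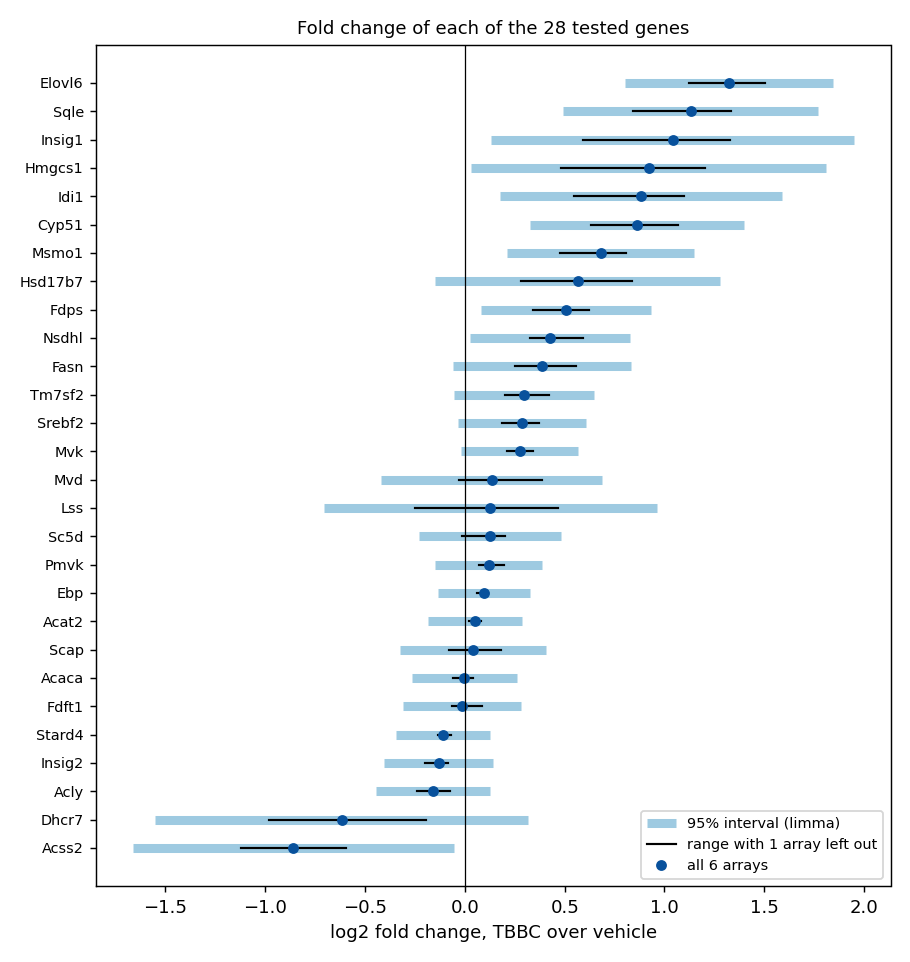
Log2 fold change (x axis, TBBC over vehicle) of the 28 tested genes, ordered by size. Points are the estimates from all 6 arrays, blue bars their 95% limma intervals and black lines the range of the estimate with 1 array left out in turn. Elovl6, Sqle and Insig1 lie above 1, and the leave-one-out lines of Lss, Mvd, Sc5d, Scap, Fdft1 and Acaca cross 0.

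The size of the difference varied among the TBBC arrays, which lay on 2 slides. TBBC 2 was the highest TBBC array in 16 of the 28 genes, against 9943 of all 32956 transcripts. Among the 12 genes whose TBBC arrays all lay above the vehicle arrays it was highest in 9 (75%), against 41.6% of the 4319 transcripts with the same separation. The median over the 28 genes, relative to the vehicle mean, was 0.30 in TBBC 1, 0.39 in TBBC 2 and 0.10 in TBBC 3. By step, the mevalonate genes had medians of 0.40, 0.32 and 0.27, and the squalene and sterol genes 0.40, 0.55 and 0.09. The regulator and sterol carrier genes had medians of 0.01, 0.28 and 0.08, and the fatty acid genes -0.09, 0.02 and 0.04. Single genes departed from the order of these medians. TBBC 3 had the lowest mevalonate median, but of the 7 genes 3 were lowest in TBBC 3, 3 in TBBC 1 and 1 in TBBC 2. Of the 11 squalene and sterol genes 7 were lowest in TBBC 3, while Ebp and Fdft1 were highest there. The difference between steps was not tested. The SD was larger among TBBC arrays than among vehicle arrays in 25 of the 28 genes, against 74.3% of transcripts. All vehicle arrays were on slide 1 and the TBBC arrays on both slides. Differences between TBBC rats and between slides therefore cannot be told apart.

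**Figure D4:**
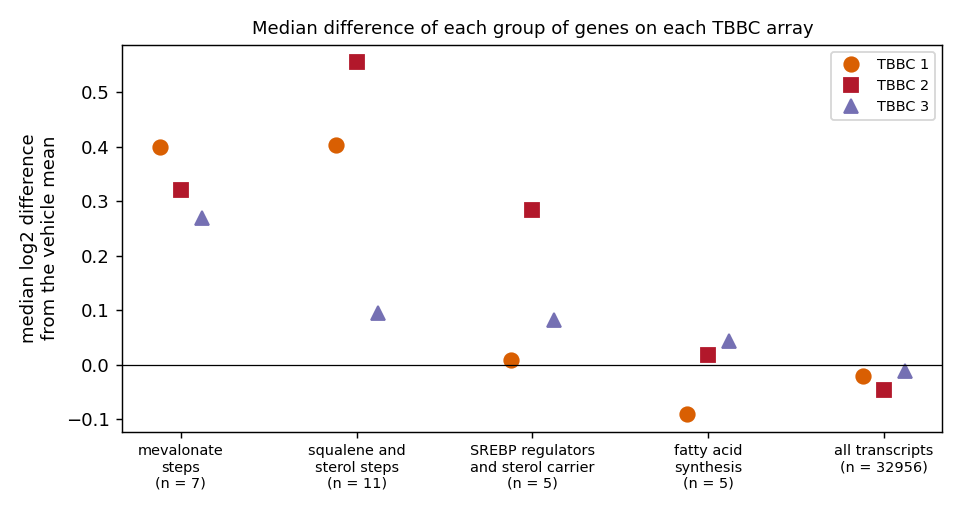
Median log2 difference from the vehicle mean (y axis) on each TBBC array, for the genes of each pathway step and for all 32956 transcripts (x axis, n = number of genes). The mevalonate medians lie between 0.27 and 0.40, the squalene and sterol medians between 0.09 and 0.55, and the medians of all transcripts between -0.05 and -0.01.

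Slide 2 held no vehicle array, so within slide 1 the comparison is that of TBBC 1 with the 3 vehicle rats. For genes whose TBBC arrays all lay above the vehicle arrays it is positive by that choice, and its size was 0.35 for Hmgcs1, 0.64 for Idi1, 0.40 for Fdps, 0.96 for Sqle, 0.82 for Cyp51, 0.52 for Msmo1, 0.63 for Nsdhl, 0.47 for Insig1 and 0.96 for Elovl6. For Acss2 it was -0.34. Other genes had another sign there than over all arrays: Lss was at -0.55, Scap at -0.24, Pmvk at -0.03, Dhcr7 at 0.11 and Insig2 at 0.01. Fdft1 was at -0.21. On TBBC 1, 16 of the 28 genes were above the highest vehicle array, against 33.2% of transcripts, and 5 were below the lowest, against 35.9%. With slide as a fixed term the estimates are these same values, and the adjusted p of Elovl6 was 0.235. With slide as a random block it was 1.26 (adjusted p = 0.0852).

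Markers of other cells and tissues were read on the same arrays, and 0 of the 34 tested passed the threshold in limma. At an unadjusted p under 0.05 there were 3 of the 34, against 20.0% of transcripts: Fgb and Cd14, higher in TBBC, and Alb, lower. Adrenal cortex makes steroid from cholesterol: 3 of 8 of its markers were tested, with summed signals of -0.54 to 0.48 in vehicle rats and -0.79 to 0.27 in TBBC rats, and Star, Cyp11b1, Cyp11b2, Mc2r and Akr1b7 were too dim to test. For fat cells 6 of 10 markers were tested, with sums of 1.32 to 1.62 and 1.10 to 2.11. Of the fat cell genes, Lep and Retn were too dim to test, and Plin1 and Plin4 had no named probe. Adipoq was at -0.18 ± 0.17 and Lipe at 0.23 ± 0.12, the latter with all TBBC rats above the vehicle rats. Cfd, which carries the high sum of TBBC 3, was at -2.33, -2.59 and 1.04 in TBBC 1 to 3 and at -2.78, -2.47 and -2.58 in the vehicle rats. For hepatocytes 6 of 7 markers were tested, with sums of 0.46 to 3.57 in vehicle rats and 3.87, 6.97 and 3.24 in TBBC 1 to 3. The high sums in TBBC came from Fgb, a fibrinogen chain, at 3.81, 6.97 and 3.12, which was highest in TBBC 2, as were 16 of the 28 genes. For Fgb TBBC 1 lay above TBBC 3, and for Hmgcs1 and Insig1 below it. The tested hepatocyte markers other than Fgb all had lower means in TBBC, with log2 fold changes from -4.03 (Ttr) to -0.13 (Apoa2). Their groups overlapped. Albumin (Alb) was at -3.61, -2.97 and -6.44 in the TBBC rats and at 2.39, -3.46 and -0.13 in the vehicle rats, so that TBBC 2 was within the vehicle range. Myeloid markers (11 of 12 tested) summed to 6.63 to 6.94 in vehicle rats and 6.52 to 7.63 in TBBC rats, and lymphocyte markers (8 of 10) to 0.36 to 0.63 and 0.29 to 1.17, both highest in TBBC 3. The part of these markers in the results was not tested.

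Promoters of the sterol genes are shown because genes of this route are known to share short control letters: SREBP sites lie near CCAAT boxes, which NF-Y binds, and near GGGCGG boxes, which Sp1 binds. RefSeq windows on assembly GRCr8, with 250 bases before and 50 after each gene's start, were matched for 23 of the 30 genes, 21 of them tested. Each motif was looked for on both strands, so that ATTGG is CCAAT on the other strand. The stretches below end at or before the outermost start. Those of Hmgcs1, Idi1 and Msmo1 were chosen after their values had been seen, Ebp for its SREBP-type letters and Insig1 for its role. Capitals mark CCAAT or ATTGG and, in Ebp, CACCCCAC. Hmgcs1 is at chr2:53382104-53382303 on the plus strand, Idi1 at chr17:66547525-66547724 on the minus strand, Msmo1 at chr16:29746913-29747112 on the plus strand, Ebp at chrX:16971212-16971371 on the plus strand and Insig1 at chr4:8057813-8058012 on the minus strand.
Hmgcs1: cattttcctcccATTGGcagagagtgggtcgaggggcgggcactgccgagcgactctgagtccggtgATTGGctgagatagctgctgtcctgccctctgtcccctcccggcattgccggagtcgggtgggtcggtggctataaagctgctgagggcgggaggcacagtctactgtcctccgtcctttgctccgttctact
Idi1: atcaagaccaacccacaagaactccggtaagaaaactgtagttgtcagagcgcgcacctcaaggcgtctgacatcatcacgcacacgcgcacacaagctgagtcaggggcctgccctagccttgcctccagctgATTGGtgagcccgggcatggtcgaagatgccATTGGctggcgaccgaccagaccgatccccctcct
Msmo1: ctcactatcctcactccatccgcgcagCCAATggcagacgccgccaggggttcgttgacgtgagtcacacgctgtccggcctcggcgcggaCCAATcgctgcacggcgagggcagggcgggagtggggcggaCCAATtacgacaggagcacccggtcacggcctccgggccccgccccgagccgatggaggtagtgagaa
Ebp: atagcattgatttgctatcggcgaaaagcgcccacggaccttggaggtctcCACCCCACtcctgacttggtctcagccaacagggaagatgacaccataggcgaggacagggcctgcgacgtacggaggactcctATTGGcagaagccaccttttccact
Insig1: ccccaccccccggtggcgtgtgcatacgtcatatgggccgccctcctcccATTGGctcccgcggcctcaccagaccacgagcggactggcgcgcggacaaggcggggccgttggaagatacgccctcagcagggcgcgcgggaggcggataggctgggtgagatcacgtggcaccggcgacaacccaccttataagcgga

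CCAAT was in the windows of 17 of the 21 tested genes, against 37.5% of all 33469 windows and 37.6% of the windows of tested genes. It was in 9 of the 10 genes with a window whose TBBC arrays all lay above the vehicle arrays, and in 8 of the 11 others. Hmgcs1 and Idi1 each hold 2 copies in the stretch shown, Msmo1 holds 3, and Ebp and Insig1 hold 1. GGGCGG was in 18 of 21, against 33.1% of all windows and 56.7% of those of tested genes. The letters CACCCCAC, found in 2.70% of windows, were in the window of Ebp alone. The letters TCACNCCAC (1.12% of windows) and TCACGTGA (0.777%) were in none of the 21 windows, which says only that these letters are not in this stretch. TCACNCCAC and CACCCCAC share their last letters and can overlap. Windows of Sqle, Fdft1, Pmvk, Stard4, Fasn, Acaca and Elovl6 were not analysed here.

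Other genes of sterol control and synthesis were read from lists that hold none of the genes above. Of 15 genes of SREBP processing and sterol-regulated degradation 12 were tested, and 0 rose and 0 fell in limma. At an unadjusted p under 0.05, 1 was higher and 1 lower, against 9.55% and 10.4% of all transcripts. The list's median log2 fold change was 0.01. The 2 with the smallest p were Tmed2, a protein of early secretory vesicles, at 0.43 ± 0.12 (adjusted p = 0.133), and Rnf139, an endoplasmic reticulum ubiquitin ligase, at -0.31 ± 0.10 (adjusted p = 0.184). The TBBC rats lay above the vehicle rats for Tmed2 and below them for Rnf139. Of 16 genes of other sterol synthesis and the isoprenoid branch 14 were tested, 0 rose and 0 fell, and the median was 0.08. Again 1 was higher and 1 lower at an unadjusted p under 0.05 in limma, against the same 9.55% and 10.4%. Cyb5r3, the cytochrome b5 reductase that feeds electrons to sterol oxidations, was at -0.34 ± 0.09 (adjusted p = 0.131), with vehicle signals of 3.05, 3.06 and 3.08 and TBBC signals of 2.75, 2.72 and 2.71. Dhdds, which builds dolichol, was at 0.48 ± 0.19 (adjusted p = 0.225).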

How the data were processed

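The deposited scanner files give a processed intensity for each spot. Per the file headers it was made by Agilent Feature Extraction (version 10.7.1.1, and 10.7 in the submitters' processing notes), which subtracts background within an array. The deposited value table holds a linear ratio for each probe. Compared with the scanner files, that ratio was the processed intensity over a divisor within 0.232% of the 75th percentile, neither logged nor centred, with column medians of 0.107 to 0.114. Of 61537 probes left after 1439 control spots, 28206 were named by accession through a RefSeq table (GRCr8). Each array was scaled to its own 75th percentile before log2 was taken. Flagged spots (0 to 9 an array) were dropped, and saturation was absent. Testing required a probe to be well above background on every array of at least 1 group, and the brightest tested probe stood for a gene. The 23 other tested probes of these genes had the same sign as the chosen one in 20 cases. Groups were compared with limma 3.58.1 in R 4.3.3 (lmFit, eBayes, two-sided), checked on simulated data. The number of arrays limits the precision. Alternatives were other scalings, normexp (offset 50, on the median signal), filters, probe rules, slide terms (statmod 1.5.0), the replicate number as a block and each array left out. The tested probes stayed the same except where the filter was varied. Full statistics are given for 13 genes: the 12 with the smallest p, which include Insig1 and Srebf2, and Fasn. As folds of TBBC over vehicle, the 95% interval was 0.99 to 1.48 for Mvk and 1.06 to 1.91 for Fdps. It was 1.02 to 1.77 for Nsdhl and 0.98 to 1.52 for Srebf2. For Fasn it was 0.96 to 1.78, and for Acss2 0.32 to 0.96. From the other lists the 2 genes with the smallest p are named. The genes and lists were chosen with earlier results of these data known. Some genes of this pathway are not reported here.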

Additional observations from a re-analysis of the deposited data

How the results depend on the processing

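The count of 0 of the 28 genes past the threshold became 1 (Elovl6) with normexp background correction and 1 with eBayes using trend and robust, and stayed at 0 with each array left out in turn. Transcripts past the threshold, 175 in the fit described, numbered 764 with normexp, 1087 with trend and robust, 333 with every probe on its own, 52 with no filter on dim probes, 48 with slide as a fixed term, 64 within the shared slide, and 6 to 263 with 1 array left out. Within the shared slide only the vehicle arrays give a spread, which TBBC 1 is taken to share. Genes higher at an unadjusted p under 0.05, 9 in the fit described, numbered 5 with slide as a fixed term (7.71% of all transcripts) and 5 to 12 with 1 array left out (6.25% to 11.7%). Applying the alternatives to this count was chosen after seeing the data. The median over the 28 genes was 0.17 to 0.30 over the alternatives (0.13 over 29 genes with no filter, which adds Scd), and 19 of the 28 kept their sign in all of them. The design text states no pairing by replicate number. Same-numbered deviations correlated at -0.09, 0.03 and -0.07, and differently numbered ones at -0.13 to 0.21. With the replicate number as a block, 0 transcripts and 0 of these genes passed. In that limma fit 8 of the 28 genes were higher at an unadjusted p under 0.05, against 7.8% of all transcripts. The precision is limited by 3 arrays a group and, for Scd, by signal over background.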

Other observations

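Among the neighbouring lists 1 gene passed the threshold, which 0.531% of all transcripts passed. Of 10 genes on a list named for cytosolic NADPH and citrate supply 9 were tested, and 1 rose, Tkt, the transketolase of the pentose phosphate pathway. Its signals were 7.65, 7.63 and 7.53 in vehicle rats and 8.72, 9.11 and 8.65 in TBBC rats, and its log2 fold change was 1.22 ± 0.15 (limma, adjusted p = 0.0387). The call held in 11 of 21 alternatives, with adjusted p-values from 0.0146 to 0.186. It held in 1 of the 6 fits with 1 array left out, the one without TBBC 3, and was lost with either slide term and within the shared slide (1.12, adjusted p = 0.0726). Of the 9 genes, 3 were higher and 1 lower at an unadjusted p under 0.05 in limma, against 9.55% and 10.4% of all transcripts. Acss1, the mitochondrial acetyl-CoA synthetase, was at -0.73 ± 0.15 (adjusted p = 0.0862), with all TBBC rats below the vehicle rats. The list's median was 0.16, against -0.02 over all transcripts.

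Of 33 genes of fatty acid elongation, desaturation, activation and glycerolipid assembly 31 were tested, and 0 rose and 0 fell in limma. At an unadjusted p under 0.05, 4 were higher and 5 lower, against 9.55% and 10.4% of all transcripts. The median was 0.03. Mlxipl, the glucose-sensing transcription factor ChREBP that drives lipogenic genes, stood at 0.24, 0.02 and -0.05 in vehicle rats and at -0.64, -1.36 and -1.07 in TBBC rats. Its log2 fold change was -1.09 ± 0.20 (limma, adjusted p = 0.0756). Acsl4, which activates long polyunsaturated fatty acids, was at 0.61 ± 0.15 (adjusted p = 0.109), with all TBBC rats above the vehicle rats. Of 20 genes of LXR, sterol export, storage and oxysterols all 20 were tested, and 0 rose and 0 fell in limma. At an unadjusted p under 0.05, 0 were higher and 1 was lower, against 9.55% and 10.4% of all transcripts. The median was -0.03. Osbpl1a, an oxysterol-binding protein, was at -0.32 ± 0.12 (adjusted p = 0.208), and Scarb1, the HDL receptor, at 0.69 ± 0.29 (adjusted p = 0.253).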
